A study of Mus musculus with 40 samples.

Results

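Chitin-treated and untreated primary tumors of the 66cl4-based model were compared over all 14318 genes of the expression table. The tumors are those that the sample labels name as 66cl4 untreated (5 tumors) or 66cl4 chitin (5 tumors), so 10 of the 39 tumors with values, and no expression value entered this choice. All 10 grew in WT female BALB/c mice, mated at 8 w of age and inoculated intraductally as lactating mothers with luciferase-expressing 66cl4 cells, a mouse line used as a model of triple-negative breast cancer (TNBC). The chitin group received i.p. injections of 1 mg chitin with a particle size of 1 to 10 µm, the untreated group received neither chitin nor anti-PD-1, and tumors were collected 5 w post-inoculation (p.i.). The study asked whether chitin, as a blocker of chitinase-like proteins (CLPs), improves anti-PD-1 immune checkpoint blockade in this model and in a model made with 4T1 cells, each with 4 treatment groups. Each model is 1 cell line. Cells were given to a pair of glands per mouse, and since the labels do not say which tumors share a mouse, p-values measure only the spread between these tumors.

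Chitin is a sugar polymer of crustacean shells, insects and fungi. CLPs such as CHI3L1 and CHI3L3, which macrophages and neutrophils secrete, bind chitin without cutting it, and phagocytes take up small chitin particles and sense them in part through Toll-like receptors. MHC class II molecules display peptides on dendritic cells, B cells and macrophages under the control of the coactivator CIITA, and IFN-gamma from T cells and natural killer cells raises class I and class II genes, guanylate-binding proteins and the chemokines CXCL9 and CXCL10. Tumor cells that outgrow their blood supply switch on glycolysis and angiogenic factors through hypoxia-inducible factors, and cells with misfolded protein switch on the unfolded protein response in the endoplasmic reticulum (ER) and the heat shock response in the cytosol.

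Promoter sequences are shown for 8 genes of 5 gene groups described below, because these groups are known to be switched on through short shared motifs. The sequences come from RefSeq on GRCm38.p6, the patch release of mm10, and hold the 250 bases before the start site, written 5′ to 3′ along the gene, with motif matches on either strand in capitals. Hspa5, Pdia6 and Calr encode ER chaperones of the unfolded protein response and carry the ER stress element, CCAAT and CCACG with any 9 bases between, which 0.137% of all genes in the table hold in at least 1 of their promoters (32851 promoters in all). Of the 18 unfolded protein response genes below, 17 had a promoter in the table and 5 held the element. Hspd1, the mitochondrial chaperonin, carries GAA, TTC and GAA with any 2 bases between neighbours, the repeated unit bound by heat shock factors, in 2 overlapping matches, and 3 of 8 genes of the heat shock list with a promoter hold it against 0.662% of all genes. Gbp2 and Gbp5, guanylate-binding proteins, carry the interferon-stimulated core, GAAA repeated after any 2 bases, found for 8 of 12 genes of the IFN-gamma list and 3.99% of all genes. H2-Eb1, a class II beta chain, carries CCAAT, found for all 8 class II genes in the table but also for 41.1% of all genes. Slc2a1, the glucose transporter GLUT1, carries ACGTG, the core bound by hypoxia-inducible factors, found for 15 of 22 genes of the hypoxia list and 21.8% of all genes. These matches are descriptions of the windows, and binding was not measured.
Hspa5, chr2:34771840-34772089, plus strand: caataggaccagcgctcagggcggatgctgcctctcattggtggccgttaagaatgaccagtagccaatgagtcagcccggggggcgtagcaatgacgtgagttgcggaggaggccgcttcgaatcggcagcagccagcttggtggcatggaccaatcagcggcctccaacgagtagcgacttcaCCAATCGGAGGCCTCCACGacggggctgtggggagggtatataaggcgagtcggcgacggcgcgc
Pdia6, chr12:17266339-17266588, plus strand: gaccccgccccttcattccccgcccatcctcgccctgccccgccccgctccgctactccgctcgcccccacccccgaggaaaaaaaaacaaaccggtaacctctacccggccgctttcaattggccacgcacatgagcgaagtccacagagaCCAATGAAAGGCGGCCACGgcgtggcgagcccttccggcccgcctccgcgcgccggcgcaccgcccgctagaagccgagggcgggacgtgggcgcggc
Calr, chr8:84846932-84847181, minus strand: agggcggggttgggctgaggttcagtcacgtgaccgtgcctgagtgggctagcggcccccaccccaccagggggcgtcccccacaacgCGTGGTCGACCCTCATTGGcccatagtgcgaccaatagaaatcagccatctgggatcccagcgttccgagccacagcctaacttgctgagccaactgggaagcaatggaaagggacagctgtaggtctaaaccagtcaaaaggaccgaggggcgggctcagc
Hspd1, chr1:55087933-55088182, minus strand: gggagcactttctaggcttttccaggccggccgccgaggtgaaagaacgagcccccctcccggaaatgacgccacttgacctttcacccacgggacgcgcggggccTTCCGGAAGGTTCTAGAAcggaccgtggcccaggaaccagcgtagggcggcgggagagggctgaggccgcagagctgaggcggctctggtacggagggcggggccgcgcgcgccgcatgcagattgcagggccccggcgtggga
Gbp2, chr3:142620413-142620662, plus strand: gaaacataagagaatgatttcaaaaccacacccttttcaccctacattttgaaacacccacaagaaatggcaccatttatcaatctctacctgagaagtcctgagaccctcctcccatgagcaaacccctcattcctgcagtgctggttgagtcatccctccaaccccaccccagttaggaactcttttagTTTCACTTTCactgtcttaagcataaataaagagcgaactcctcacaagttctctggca
Gbp5, chr3:142496684-142496933, plus strand: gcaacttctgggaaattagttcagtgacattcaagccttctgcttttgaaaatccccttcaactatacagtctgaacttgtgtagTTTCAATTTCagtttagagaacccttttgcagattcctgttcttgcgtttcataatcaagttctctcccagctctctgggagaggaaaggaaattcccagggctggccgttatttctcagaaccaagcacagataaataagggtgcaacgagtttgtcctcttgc
H2-Eb1, chr17:34305617-34305866, plus strand: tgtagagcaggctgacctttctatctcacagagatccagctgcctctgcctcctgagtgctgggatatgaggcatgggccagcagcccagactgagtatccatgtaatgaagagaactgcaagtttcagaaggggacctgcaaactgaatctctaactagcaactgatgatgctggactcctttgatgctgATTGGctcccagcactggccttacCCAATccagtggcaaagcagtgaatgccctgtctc
Slc2a1, chr4:119108495-119108744, plus strand: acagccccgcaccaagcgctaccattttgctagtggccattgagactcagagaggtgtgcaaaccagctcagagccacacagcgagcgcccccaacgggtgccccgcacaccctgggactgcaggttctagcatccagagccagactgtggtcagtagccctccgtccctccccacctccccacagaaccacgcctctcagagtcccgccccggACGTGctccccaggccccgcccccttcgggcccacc

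RNA was sequenced from whole tumors, and the values are normalized counts (reads divided by a size factor per tumor) or the deposited log2-like values made from them. In such bulk samples, fewer cells of a type and less RNA per cell cannot be told apart. Untreated tumors had 5732583 to 8408913 recovered reads and chitin-treated tumors 6183436 to 14800352, a difference in means of 3867290 reads (exact permutation test, two-sided, p = 0.0238). Depth thus moved with the treatment, and its part in the results was not tested beyond the alternatives given. As for the labelled tissue, the luminal keratin gene Krt8 (3152 to 5709 normalized counts) and the mesenchymal filament gene Vim (18358 to 27751) were abundant in all 10 tumors, whereas the epithelial adhesion genes Epcam (2.85 to 123) and Cdh1 (14.2 to 107) were low. Untreated tumor 3 stood apart: its 20 skeletal muscle genes summed to 5516 normalized counts, against 144 to 352 in the other 9 tumors. Untreated tumors 1, 2 and 5 held more red blood cell transcripts, with sums over Hba-a1, Hbb-bt and Alas2 of 8284, 3753 and 13189 normalized counts against 1035 to 2281 in the other 7. For some results below, values without untreated tumor 3 are given as well, and all other values include it.

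No gene passed an adjusted p of 0.05 (0 of 14318, 0%, limma, and likewise 0 with limma-voom on the recovered reads). At an unadjusted p under 0.05, called nominal from here on, 883 genes (6.17%) were higher and 756 (5.28%) lower with chitin. All 5 chitin-treated tumors lay above all 5 untreated tumors for 140 genes (0.978%), and below them for 100 (0.698%). With the tumors of both models in 1 fit, which then share one estimate of the spread, 279 genes were nominally higher and 260 lower. Counts under this fit are given for some gene groups below. For the other groups they are not reported here, and their counts may also have changed. Without untreated tumors 1 to 5 in turn, 595, 715, 1184, 1013 and 853 genes were nominally higher and 464, 588, 1155, 859 and 671 lower. Without chitin-treated tumors 1 to 5, 807, 844, 1010, 690 and 772 were higher and 667, 622, 986, 588 and 657 lower. With read depth as a covariate, 713 were higher and 462 lower. Gene group counts under these settings are read against these totals. The median difference of all genes was −0.000064 on the log2-like scale, so that the values below are read against 0. Without untreated tumor 3, 25 genes (0.175%) passed the adjusted threshold, of which 10 were higher and 15 lower with chitin. The higher genes without that tumor included Irf5 (0.30, adjusted p = 0.0487), a transcription factor of inflammatory macrophages, Psme2 (0.30, adjusted p = 0.0433), an activator subunit of the proteasome that processes antigens, and Slfn2 (0.52, adjusted p = 0.0472), an interferon-induced gene of leukocytes. The lower ones included Fgf7 (−1.09, adjusted p = 0.00914), a growth factor for epithelium, Klf5 (−0.81, adjusted p = 0.00667), a transcription factor of proliferating epithelium, and Trp63 (−0.58, adjusted p = 0.00914), the transcription factor of basal epithelium. These 6 were chosen after their values were seen, and with all 10 tumors their adjusted p was 0.208 each.

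Of the genes with at least 20 normalized counts on average whose groups did not overlap, Ptpro had the smallest p, a receptor-type tyrosine phosphatase. Its levels were 103, 141, 109.9, 152 and 128 normalized counts in untreated tumors 1 to 5 and 204, 199.8, 188, 204 and 224 in chitin-treated tumors 1 to 5, an order kept throughout. The difference, chitin-treated minus untreated and given ± its standard error (SE) here and below, was 0.43 ± 0.073 on the log2-like scale (limma, adjusted p = 0.131). Among the next genes higher with chitin, Pira2 was at 131, 122, 194, 158 and 171 normalized counts without and 232, 280.3, 222, 259 and 259 with chitin, and its relative Lilra6 at 56.3, 47, 87.9, 73.4 and 84.1 (untreated) and 125, 131, 106, 99.6 and 95.3 (chitin), both paired immunoglobulin-like receptors of myeloid cells in a family of near-identical genes, so that the split of reads between them is uncertain. Evi2a (0.37 ± 0.085 on the log2-like scale), Lyl1 (0.41 ± 0.094), a transcription factor of blood cell precursors, Gpr132 (0.36 ± 0.079), a receptor for lactate and lipids on macrophages, and Ms4a4b (0.37 ± 0.084), a membrane protein of T cells, followed the same pattern. Zfpm1 (0.29 ± 0.061), a partner of GATA factors, Aopep (0.37 ± 0.083), an aminopeptidase, and Dcxr (0.31 ± 0.068), a carbonyl reductase, completed the 10. Their adjusted p ran from 0.131 to 0.208.

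Among the genes lower with chitin, Myo18a, an unconventional myosin of the Golgi, was at 1567, 1502, 1289.9, 1578 and 1663 normalized counts in untreated and 1049, 1175, 1165, 1122 and 1000.2 in chitin-treated tumors, a difference of −0.42 ± 0.077 on the log2-like scale (limma, adjusted p = 0.159). Both metallothioneins, small proteins that bind zinc and copper and are induced by metals, glucocorticoids and oxidative stress, were in this group. Mt2 was at 1649.5, 844, 1011, 869 and 1152 normalized counts without and 679, 536, 637, 457 and 461 with chitin, and Mt1 at 1872, 1025, 1093, 1043 and 1687 (untreated) and 769, 771, 980.4, 687 and 576 (chitin). The mean of Mt2 was 2.0-fold higher and that of Mt1 1.78-fold higher in untreated tumors, with untreated tumor 1 highest for both. Nrg1, a ligand of the ERBB receptors, was at 388, 342, 256, 317 and 215 normalized counts without and 163, 151, 130.4, 145 and 181 with chitin, a difference of −0.64 ± 0.15 on the log2-like scale. Mgst2, a glutathione transferase that makes leukotriene C, differed by −0.58 ± 0.13, Rrad, a small GTPase of muscle, by −0.34 ± 0.073, and the long noncoding RNA gene Fendrr by −0.28 ± 0.068. Mafg (−0.26 ± 0.065), a partner of the stress factor NRF2, Desi2 (−0.25 ± 0.060) and Heatr3 (−0.16 ± 0.038) were also lower, and adjusted p for these 9 genes was 0.208. The dot plot of 12 genes gives these and other values tumor by tumor.

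**Figure D1:**
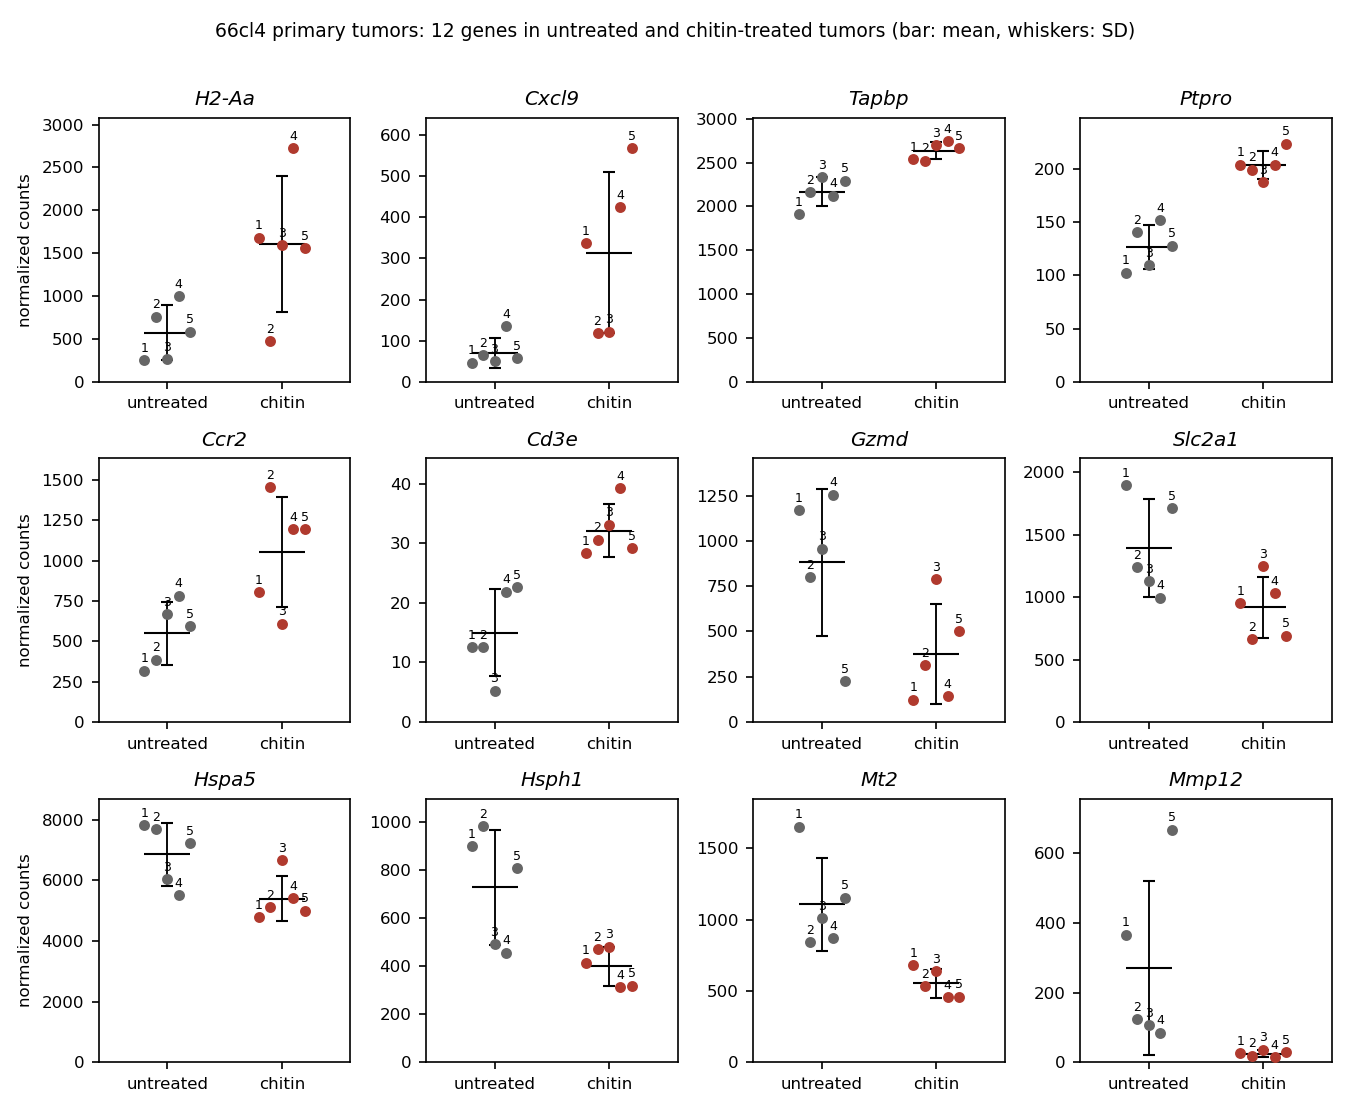
Normalized counts (linear axes from 0) of 12 genes in the 5 untreated (grey) and 5 chitin-treated (red) 66cl4 tumors; each point is a tumor with its number, the bar is the mean and whiskers are 1 SD. Tapbp, Ptpro, Cd3e, Mt2 and Mmp12 do not overlap between the groups, while chitin-treated tumor 2 lies among the untreated tumors for H2-Aa, chitin-treated tumor 3 for Hspa5 and chitin-treated tumors 3 and 4 for Slc2a1.

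Genes of antigen presentation were higher with chitin. All 11 MHC class II genes had a positive difference, 9 of them nominally (0 lower), with a list median of 0.71 on the log2-like scale and of 0.63 without untreated tumor 3. H2-Aa, the alpha chain of I-A, was at 250.3, 757, 263, 998 and 582 normalized counts in untreated and 1680.3, 471, 1592, 2726 and 1561 in chitin-treated tumors. Chitin-treated tumor 2 was lower than untreated tumors 2, 4 and 5, and the other 4 chitin-treated tumors were above all untreated ones. The mean was 2.82-fold higher, a log2-like difference of 1.30 ± 0.51 (limma, adjusted p = 0.327). The same overlap between the groups held for H2-Ab1 (1.29 ± 0.48, adjusted p = 0.302), H2-Eb1 (1.39 ± 0.54) and Cd74 (1.34 ± 0.54), the invariant chain that guides class II molecules. Ciita, the coactivator that switches these genes on, was at 37.5, 120.4, 28.1, 155 and 72.1 normalized counts without and 249, 99.9, 172, 341 and 302 with chitin (0.90 ± 0.32 on the log2-like scale). H2-DMa, of the DM complex that loads peptides, was at 265, 347, 260.3, 519 and 376 (untreated) and 662, 368, 701, 852 and 691 (chitin) normalized counts (0.71 ± 0.21, adjusted p = 0.232). H2-DMb1 (0.66), H2-DMb2 (0.56) and H2-Oa (0.17) were the other nominal members, H2-Oa at no more than 6.67 normalized counts in any tumor. Nominal calls among class II genes numbered 5 without untreated tumor 3 and 5 without chitin-treated tumor 4. Ptprc, which encodes CD45, the surface phosphatase common to leukocytes, moved in the same direction, at 779.7, 721, 1007, 1104 and 959.6 normalized counts without and 1319, 1226, 960.4, 1318 and 1339 with chitin (0.39 ± 0.12 on the log2-like scale). All chitin-treated tumors but tumor 3 were above all untreated tumors for it. The part of leukocyte content in this and the leukocyte gene groups below was not tested.

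The MHC class I list showed smaller and tighter differences. Of 15 members, 11 were nominally higher and 1 nominally lower, with a median of 0.28 on the log2-like scale. Tapbp, the tapasin that ties class I to the peptide transporter, was at 1916, 2165, 2335, 2123 and 2294 normalized counts in untreated and 2543, 2525, 2698, 2748 and 2668 in chitin-treated tumors, with no overlap (0.27 ± 0.065, limma, adjusted p = 0.208). The groups were also separate for H2-K1 (0.30 ± 0.097), H2-D1 (0.28 ± 0.086) and B2m (0.29 ± 0.097), the chains of class I itself. B2m, the light chain, was at 3781, 4027, 4267, 4522 and 4695 normalized counts without and 5042, 5191, 5418, 5604 and 4962 with chitin. Reads of class I heavy chains can be shared between close relatives, and their counts are uncertain in that respect. Tap1, a subunit of the peptide transporter, was at 222, 285, 335, 399 and 316 (untreated) and 532, 402, 369.6, 562 and 639 (chitin) normalized counts (0.52 ± 0.16), and Nlrc5, the coactivator of class I genes, at 51.3, 84.8, 68.6, 139 and 74.7 (untreated) and 193, 128, 83.6, 174 and 216 (chitin) (0.50 ± 0.17). The immunoproteasome genes Psmb8 (0.36), Psmb9 (0.38) and Psmb10 (0.26) and Tapbpl (0.30), a peptide editor, were nominally higher on the same scale. Erap1, a trimming peptidase, was the remaining nominally higher member. The nominally lower member was Calr (−0.19 ± 0.088), an ER chaperone that also stands in the unfolded protein response list. Without untreated tumor 1, 7 members were nominally higher, and with both models in 1 fit 6 were.

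The IFN-gamma response list had 11 of 16 members nominally higher and 0 lower, with a median of 0.46 on the log2-like scale, and with both models in 1 fit 3 were nominally higher. Cxcl9, a chemokine for T cells, was at 46.3, 64.2, 49.2, 135 and 57.4 normalized counts in untreated and 337, 118, 122, 425 and 568 in chitin-treated tumors. Chitin-treated tumors 2 and 3 were below untreated tumor 4, while chitin-treated tumors 1, 4 and 5 were above all untreated tumors. The mean was 4.46-fold higher, a log2-like difference of 1.18 ± 0.37 (limma, adjusted p = 0.232). Cxcl10, another ligand of the same receptor, differed by 0.44 ± 0.15, and Irf1, a transcription factor of interferon signalling, by 0.33 ± 0.11. Among GTPases against intracellular microbes, Iigp1 (0.94 ± 0.38) was at 144, 169.7, 165, 309 and 136 (untreated) and 594, 263, 189, 581 and 844 (chitin) normalized counts, and Gbp2 (0.50 ± 0.17), Gbp3 (0.47 ± 0.16), Gbp5 (0.63 ± 0.23) and Gbp7 (0.58 ± 0.19) differed in the same direction. Igtp and Irgm1, GTPases of the same kind, and Ifngr1, a chain of the IFN-gamma receptor, were the other nominal members. Ifng itself was barely detected, at 0, 0, 0.879, 0 and 0 normalized counts without and 3.54, 0.805, 1.58, 3.93 and 2.85 with chitin, with 1 read in the untreated group and at least 1 in each chitin-treated tumor (0.24 ± 0.075, adjusted p = 0.232). The type I interferon list, read beside it, had 0 of 20 members nominally higher and 0 lower, with a median of 0.035. Bst2, a membrane tether of viruses, differed by −0.15 ± 0.13.

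**Figure D2:**
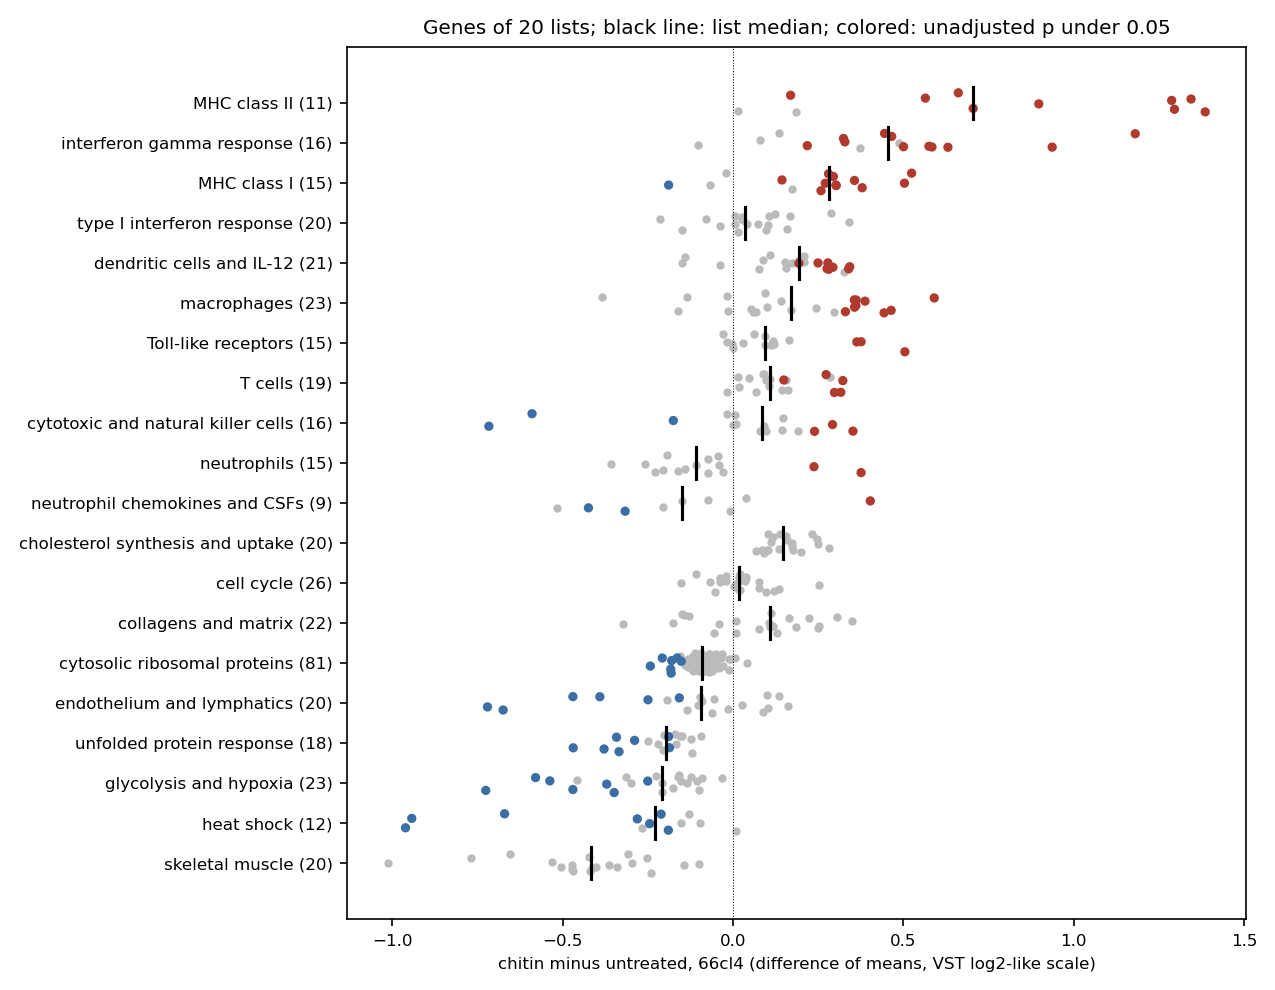
Differences between chitin-treated and untreated 66cl4 tumors (difference of group means on the deposited log2-like scale, x axis) for the genes of 20 lists, each point a gene and the number of genes in brackets; black lines are list medians, red and blue points have an unadjusted p under 0.05 above and below 0, grey points do not. The MHC class II median lies at 0.71 and the heat shock median at −0.23, against −0.000064 for all genes.

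Among myeloid genes, 9 of 23 macrophage markers were nominally higher and 0 lower (median 0.17 on the log2-like scale), but 0 with both models in 1 fit. Maf, a transcription factor of tissue macrophages, was at 1652, 2177, 2072, 2076 and 1882 normalized counts without and 2370.3, 3305, 2203, 2466 and 2529.7 with chitin (0.36 ± 0.093), and Adgre1, which encodes F4/80, at 1265, 1568, 1154, 1417 and 1337 (untreated) and 1853, 1612, 1569, 1867 and 1892 (chitin) (0.36 ± 0.12). Neither gene overlapped between the groups. Csf1r, the receptor for the macrophage growth factor CSF1, was at 3345, 5355, 4760.4, 6934 and 5414 (untreated) and 6947, 5680.3, 6349, 7577 and 6683 (chitin) normalized counts (0.39 ± 0.16, limma, adjusted p = 0.356), with overlap through untreated tumor 4. Ms4a7 (0.46), Fcgr1 (0.44), the high-affinity IgG receptor, and Cx3cr1 (0.59), the fractalkine receptor, were nominally higher on this scale. Complement genes of macrophages went with them: C1qa was at 5698, 8698, 8785, 9293 and 8876 normalized counts without and 10341, 9037, 12262, 11241 and 9914 with chitin (0.36 ± 0.13), C1qb (0.33) and C1qc (0.36) were nominally higher, and so was Cfb (0.65 ± 0.18), factor B of the alternative pathway, which made 4 of 15 complement genes (0 lower), 1 with both models in 1 fit. Genes of the scavenger and mannose receptors of alternatively activated macrophages, Cd163 (0.067 ± 0.16) and Mrc1 (0.053 ± 0.12), were not nominal, with adjusted p of 0.914 and 0.911, and the hyaluronan receptor gene Lyve1 differed by −0.14 ± 0.32.

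Ccr2, the receptor that draws monocytes out of the blood, was at 318, 386, 668, 783 and 594 normalized counts in untreated and 805, 1458, 610.3, 1196 and 1197 in chitin-treated tumors. Chitin-treated tumor 3 was the exception below untreated tumors 3 and 4, and the log2-like difference was 0.81 ± 0.29 (limma, adjusted p = 0.284). Ccl12 (0.24), a ligand of CCR2, Ccl5 (0.44), a T-cell chemokine, and Ccr7 (0.28), the lymph node homing receptor, made up the 4 nominally higher of 13 CC chemokine genes, with 0 lower and 0 higher with both models in 1 fit. Of 21 dendritic cell and IL-12 genes, 8 were nominally higher and 0 lower (median 0.19), but 0 were higher with both models in 1 fit and 1 of 7 without the lowest 25% of genes. Xcr1, a receptor of cross-presenting dendritic cells, was at 8.76, 17.2, 19.3, 29.6 and 12 normalized counts without and 39, 31.4, 27.9, 31.5 and 59.8 with chitin (0.34 ± 0.10), and Batf3, the transcription factor of that subset, at 8.76, 9.17, 8.79, 15.5 and 5.34 (untreated) and 26, 11.3, 18.9, 27.5 and 19.2 (chitin) (0.25 ± 0.079). Il12b, a subunit of IL-12, was at 12.5, 10.3, 4.4, 12.9 and 8.01 (untreated) and 15.4, 29.8, 14.2, 16.4 and 39.1 (chitin) normalized counts with no overlap (0.28 ± 0.096, adjusted p = 0.264). Cd40, a costimulatory receptor, differed by 0.34 ± 0.098. Irf4, a transcription factor of dendritic and lymphoid cells, Siglech, a lectin of plasmacytoid dendritic cells, Ccr7 and Il18r1 were the other nominal members. Counts of these genes are low, and the log2-like scale compresses fold changes at low counts: the mean of Il12b was 2.39-fold higher.

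Of 15 Toll-like receptor pathway genes, 3 were nominally higher and 0 lower. Tlr2, a receptor known to sense chitin particles, was at 235, 328, 412, 325 and 352 normalized counts without and 535, 495, 376, 482 and 416 with chitin (0.38 ± 0.10, limma, adjusted p = 0.208). Tlr1, its partner, was at 238, 244, 316, 372 and 303 (untreated) and 402, 408, 352, 436 and 445 (chitin) normalized counts (0.36 ± 0.080), and Tlr9, a sensor of DNA, at 50.1, 77.9, 25.5, 109 and 64.1 (untreated) and 106, 79.7, 114, 189 and 150.1 (chitin) (0.50 ± 0.18). The adaptor gene Myd88, in the list on chitin sensing and type 2 immunity, differed by 0.16 ± 0.059 and Ccl22, a chemokine for regulatory and type 2 T cells, by 0.27 ± 0.10, both nominally higher. Arg1, arginase of alternatively activated macrophages, was nominally lower in that list, at 1502, 1271, 3317, 1351 and 3382 normalized counts without and 2087, 1542, 854, 545 and 576 with chitin (−0.92 ± 0.42). Of lysosomal genes, the cysteine proteases Ctss (0.40 ± 0.12), Ctsh (0.46 ± 0.15) and Ctsc (0.37 ± 0.15) were nominally higher and the aspartic protease Ctsd (−0.27 ± 0.12) nominally lower, of 19.

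T-cell genes were mostly higher with chitin, with 18 of 19 positive and 5 nominally higher (median 0.11 on the log2-like scale), but 0 with both models in 1 fit and 2 of 6 without the lowest 25% of genes. Cd3e, a chain of the T-cell receptor complex, was at 12.5, 12.6, 5.28, 21.9 and 22.7 normalized counts without and 28.4, 30.6, 33.1, 39.3 and 29.2 with chitin, with no overlap (0.32 ± 0.095, limma, adjusted p = 0.226). Cd8a was at 13.8, 8.02, 7.91, 27 and 24 (untreated) and 34.3, 24.2, 33.1, 35.4 and 24.9 (chitin) normalized counts (0.27 ± 0.091), and Cd3g (0.32) and Cd6 (0.30), a coreceptor of T cells, were nominally higher too. The mean of Cd3e was 2.14-fold and that of Cd8a 1.88-fold higher. Cd226, an activating receptor of T and natural killer cells, was at 8.76, 9.17, 14.9, 19.3 and 6.67 (untreated) and 34.3, 29, 14.2, 35.4 and 38.4 (chitin) normalized counts (0.35 ± 0.10). Klrk1, which encodes NKG2D, differed by 0.29 ± 0.12.

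Cytotoxic effector genes went in both directions with chitin. Of 16 listed genes, 11 were positive and 5 negative, with a median of 0.086 on the log2-like scale. Among the positive ones, Gzma (0.19), Gzmk (0.15) and Nkg7 (0.14) were not nominal. In the list of 16 cytotoxic and natural killer genes, 3 were nominally higher (Cd226, Ifng and Klrk1) and 3 nominally lower (Gzmb, Prf1 and Eomes), with 1 in each direction with both models in 1 fit and 1 lower without untreated tumor 1 or chitin-treated tumor 4. Gzmb, granzyme B, was at 370.4, 207, 209, 251 and 81.4 normalized counts without and 80.3, 109.5, 176, 68.1 and 111 with chitin (−0.59 ± 0.20, limma, adjusted p = 0.26), and Prf1, perforin, at 581, 366, 416, 434 and 112 (untreated) and 106, 176, 303, 93.7 and 229.8 (chitin) (−0.72 ± 0.28). Untreated tumor 5 was as low as the chitin-treated tumors for both, and chitin-treated tumor 3 was the highest of its group. Genes of the granzyme cluster beside Gzmb, named after their values were seen, had larger differences: −0.84 ± 0.29 for Gzmc, −1.07 ± 0.43 for Gzmd, −0.83 ± 0.32 for Gzme, −1.13 ± 0.45 for Gzmf and −1.17 ± 0.46 for Gzmg. Gzmd was at 1169, 799, 958, 1256 and 226 normalized counts without and 123, 316, 787, 144 and 502 with chitin. Gzmc to Gzmg are close copies near each other on chromosome 14, so that reads may be split between them and the 5 genes are not separate observations. Tigit, an inhibitory receptor, was at 290.4, 222, 121, 185 and 167 (untreated) and 100.4, 124, 147, 119.9 and 98.9 (chitin) normalized counts (−0.43 ± 0.13), and Tnfrsf9, which encodes 4-1BB, differed by −0.45 ± 0.16, both nominally lower. Pdcd1lg2, which encodes PD-L2, was the nominally higher member of 15 regulatory T-cell and checkpoint genes, at no more than 9.17 normalized counts in any tumor (0.15 ± 0.073). Pdcd1, which encodes PD-1 itself, was at 17.5, 17.2, 9.67, 20.6 and 40 (untreated) and 20.1, 31.4, 25.8, 44.6 and 27.7 (chitin) normalized counts (0.16 ± 0.10, adjusted p = 0.576), Foxp3, the factor of regulatory T cells, differed by 0.089 ± 0.067, and Cd4 by 0.29 ± 0.15, none of them nominally. The cells that express the granzymes were not identified here.

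Genes of glycolysis and hypoxia were lower with chitin without exception among the 23 measured, 7 of them nominally (0 higher), with a median of −0.21 on the log2-like scale. Slc2a1 was at 1895, 1238, 1129, 996 and 1715 normalized counts in untreated and 951, 665, 1249, 1033 and 691 in chitin-treated tumors (−0.54 ± 0.21, limma, adjusted p = 0.323). Untreated tumors 1 and 5 were highest and chitin-treated tumors 2 and 5 lowest, with overlap through chitin-treated tumors 3 and 4. Egln3, a prolyl hydroxylase that is itself induced by hypoxia, was at 431, 202, 157, 281 and 246 (untreated) and 169, 41.9, 164, 144 and 82.5 (chitin) normalized counts (−0.73 ± 0.23). Adm, adrenomedullin, differed by −0.58 ± 0.21, Hk2, hexokinase 2, by −0.25 ± 0.10, Pfkl, liver phosphofructokinase, by −0.35 ± 0.16, and Aldoa, aldolase A, by −0.37 ± 0.16. Vegfa, the angiogenic growth factor, was at 504, 291, 640.1, 340.0 and 549.9 normalized counts without and 396, 397, 285, 212 and 216 with chitin (−0.47 ± 0.20). With it, 6 of 20 genes of the endothelial list were nominally lower and 0 higher. Among them were the tip cell genes Esm1, at 188, 87.1, 58.9, 29.6 and 198 (untreated) and 94.5, 23.4, 30, 21.6 and 6.4 (chitin) normalized counts (−0.72 ± 0.25), Apln (−0.68 ± 0.27) and Angpt2 (−0.39 ± 0.18). The others were Flt1 (−0.25 ± 0.12), a VEGF receptor, Esam, and Vegfa, which also stands in the hypoxia list. Of the 20, 14 were negative and 6 positive (median −0.095). The endothelial markers Pecam1 (−0.10), Cdh5 (−0.092), Kdr (−0.061) and Vwf (0.13) were not nominal. Of the hypoxia list, 2 members were nominally lower without untreated tumor 1 or chitin-treated tumor 5, 3 without untreated tumor 5 or chitin-treated tumor 2, 1 with read depth as a covariate and 2 with both models in 1 fit. Of the endothelial list, 1 was nominally lower without untreated tumor 1, untreated tumor 5 or chitin-treated tumor 5, 2 without chitin-treated tumor 4, 0 with read depth as a covariate and 1 with both models in 1 fit.

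Genes of protein folding stress were lower as well. All 18 unfolded protein response genes had a negative difference, 7 nominally (0 higher), with a median of −0.20 on the log2-like scale. Hspa5, the ER chaperone BiP, was at 7828, 7695, 6032, 5516 and 7218 normalized counts without and 4778, 5124, 6665, 5423 and 4996 with chitin (−0.33 ± 0.11, limma, adjusted p = 0.264). Pdia6, a disulfide isomerase, was at 7321, 7483, 6792, 7159.9 and 7827 (untreated) and 4494, 4876, 7490.0, 6423 and 5171 (chitin) normalized counts (−0.38 ± 0.11, adjusted p = 0.208). Chitin-treated tumor 3 was within the untreated range for both. Ern1, which encodes the ER stress sensor IRE1 alpha, did not overlap between the groups, at 687, 582, 868, 896 and 878 (untreated) and 551, 561, 477, 503 and 536 (chitin) normalized counts (−0.47 ± 0.13). Dnajb9 (−0.29 ± 0.10), a cochaperone, Asns (−0.34 ± 0.14), asparagine synthetase, Pdia4 (−0.19 ± 0.087) and Calr were the other nominal members. Nominally lower were 14 of the 18 without chitin-treated tumor 3, 11 without untreated tumor 4, 4 without chitin-treated tumor 5 and 4 with both models in 1 fit. The count over all genes moved too, from 756 to 986, 859, 657 and 260 in these settings.

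Of 12 heat shock genes, 7 were nominally lower and 0 higher (median −0.23 on the log2-like scale). Hsph1, the HSP110 chaperone, was at 901, 984, 493, 457 and 809 normalized counts without and 416, 473, 483, 313 and 319 with chitin (−0.67 ± 0.18, limma, adjusted p = 0.208). Hspa1a was at 916, 613, 127, 234 and 872 (untreated) and 109, 109.5, 497, 233 and 119 (chitin) normalized counts (−0.94 ± 0.39) and its near copy Hspa1b at 2218, 1424, 294, 562 and 1687 (untreated) and 278, 242, 1246, 626 and 329 (chitin) (−0.96 ± 0.43), a pair between which reads are hard to assign. For both, untreated tumors 1, 2 and 5 were above all chitin-treated tumors, while untreated tumors 3 and 4 lay within the range of the chitin-treated tumors. Hsp90aa1 (−0.28 ± 0.12), Hspa8 (−0.24 ± 0.11) and Hspd1 (−0.19 ± 0.089) were nominally lower with smaller differences, and Dnajb1, a cochaperone, was the remaining nominal member. Nominal calls in this list numbered 1 without untreated tumor 1, untreated tumor 5 or chitin-treated tumor 5, 2 without untreated tumor 2 or chitin-treated tumor 1, 3 without chitin-treated tumor 2 or 4 or with both models in 1 fit, and 2 with read depth as a covariate.

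Of the 10 genes that the study names for RNA in 66cl4 tumors, 5 are tied to innate immunity or inflammation and 5 to T-cell activity. They were named with these samples in view and are not independent evidence. Of the T-cell genes, Cd8a, Ifng, Il12b and Il18r1 were nominally higher, and Cd8b1 differed by 0.16 ± 0.091. Of the innate and inflammation genes, Csf1r was nominally higher (0.39 ± 0.16), and none was nominally lower. With both models in 1 fit, 0 of the 10 were nominal. Il18r1, a receptor chain of IL-18, was at 16.3, 26.4, 5.28, 16.7 and 24 normalized counts without and 42.5, 25.8, 13.1, 40.6 and 50.5 with chitin (0.28 ± 0.10 on the log2-like scale). Itgam, an integrin of myeloid cells, differed by 0.17 ± 0.16, Lgals3, galectin-3, by −0.077 ± 0.18, and the chemokine genes Ccl2 and Cxcl2 by −0.16 ± 0.22 and −0.15 ± 0.19, none of these 4 nominally. A further list held 27 genes whose proteins were assayed in these models, of which 23 were in the expression table. Of these 23, Cd3e, Adgre1 and Il1b were nominally higher and Gzmb nominally lower, and the differences of the other 19 ran from −0.14 to 0.29. Of the CLP genes, Chil1, which encodes CHI3L1, was at 10, 12.6, 7.91, 5.15 and 34.7 normalized counts without and 9.45, 72.5, 19.4, 38 and 0 with chitin (0.15 ± 0.25, limma, adjusted p = 0.868), with more spread within than between groups. Chil3 was at 0, 0, 3.52, 2.58 and 1.33 (untreated) and 0, 4.83, 1.05, 0.655 and 1.42 (chitin) normalized counts (0.021 ± 0.094), so that no difference in its RNA was detectable at this depth. Chid1, which encodes the related SI-CLP, was nominally lower at 547, 577, 631, 600.2 and 619 (untreated) and 464, 554, 579, 522 and 445 (chitin) (−0.18 ± 0.057).

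Neutrophil markers were mostly lower without being nominal. Of 15, 13 had a negative difference, 0 of them nominally, and 2 were nominally higher, Csf3r (0.38 ± 0.11), the G-CSF receptor, and Cxcr2 (0.24 ± 0.094), the receptor for neutrophil chemokines. S100a8, an alarmin of neutrophils, was at 83.9, 32.1, 22.9, 28.3 and 37.4 normalized counts without and 22.5, 29.8, 16.3, 24.9 and 23.5 with chitin (−0.23 ± 0.13, limma, adjusted p = 0.512), and S100a9 differed by −0.26 ± 0.16. The chemokine genes Cxcl3, at 73.8, 52.7, 23.7, 30.9 and 52.1 (untreated) and 31.9, 12.1, 26.8, 9.83 and 11.4 (chitin) normalized counts (−0.42 ± 0.15), and Cxcl1 (−0.32 ± 0.13) were the 2 nominally lower of 9 neutrophil-attracting chemokine and colony-stimulating factor genes. Il1b, counted in that list, was nominally higher, at 103, 72.2, 67.7, 162 and 120.1 (untreated) and 148, 149.8, 241, 169.7 and 132 (chitin) normalized counts (0.40 ± 0.16), while Ptgs2, which encodes COX-2, was nominally lower at 955, 585, 214, 442 and 722 (untreated) and 204, 204, 416, 356 and 199 (chitin) (−0.77 ± 0.27).

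Mmp12, the elastase of macrophages, was lower with chitin. Its levels were 367, 125, 107, 85 and 669 normalized counts in untreated and 27.2, 19.3, 36.8, 14.4 and 29.9 in chitin-treated tumors, with no overlap and a mean 10.6-fold higher without chitin, or 6.70-fold without untreated tumor 5 (−1.45 ± 0.46 on the log2-like scale, limma, adjusted p = 0.236). Untreated tumors 1 and 5, which were also richest in red blood cell transcripts, were highest. The same 2 tumors were highest for Hmox1, the heme-degrading oxygenase, at 3225, 1711, 1380.5, 1184 and 4917 (untreated) and 1211, 1389.5, 760.1, 684 and 632 (chitin) normalized counts (−1.16 ± 0.45), and for Adam8, a protease of myeloid cells, at 1679.6, 1069.5, 1388, 770.2 and 2643 (untreated) and 1122, 868, 622, 417 and 487 (chitin) (−0.94 ± 0.32). Hmox1 and Adam8 were named after their values were seen, and the part of red blood cells or bleeding in these 3 differences was not tested. Mmp13, a collagenase, was nominally lower, with a difference of −0.28 ± 0.12. Of 15 matrix metalloproteinases and inhibitors, Mmp12 and Mmp13 were the nominal members.

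In the stroma, Cxcl12, a chemokine of fibroblasts that retains CXCR4+ cells, was at 1536, 2004, 2058, 2042 and 1604 normalized counts without and 2663, 2785, 2309.9, 3426 and 3763 with chitin, with no overlap (0.65 ± 0.17 on the log2-like scale, limma, adjusted p = 0.208). Pdgfra, a growth factor receptor of fibroblasts, was nominally lower at 2607, 2549, 1315, 2747 and 2949.7 (untreated) and 1438, 1191, 1943, 1769.8 and 1663 (chitin) normalized counts (−0.54 ± 0.19), although untreated tumor 3 fell among the chitin-treated tumors. Tgfbi, a matrix protein induced by TGF-beta, was nominally higher at 332, 499, 1108, 743 and 673 (untreated) and 874, 1643, 806, 1011 and 1648 (chitin) (0.76 ± 0.24). Collagen and matrix genes had 0 of 22 members nominally higher and 0 lower, and cell cycle genes 0 and 0 of 26, with medians of 0.11 and 0.018. Without untreated tumor 3 these medians were 0.17 and 0.097. Cholesterol synthesis genes were all 20 positive, none nominally (median 0.15), and 79 of 81 ribosomal protein genes were negative, 7 nominally lower (median −0.092, with 43 nominally lower without chitin-treated tumor 3, 1 without chitin-treated tumor 5 and 0 with both models in 1 fit), among them Rpl5 (−0.18 ± 0.069), Rps7 (−0.18 ± 0.073) and Rpl9 (−0.16 ± 0.076). All 20 skeletal muscle genes were negative, 0 nominally, with a median of −0.42 that came to −0.042 without untreated tumor 3. Trp63, the 1 nominally lower of 12 keratin and basal epithelium genes, was at 188, 146, 56.3, 112 and 163 (untreated) and 55.5, 64.4, 87.3, 90.4 and 59.8 (chitin) (−0.43 ± 0.12), untreated tumor 3 again being the lowest untreated tumor.

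The remaining lists held few nominal members. Of 19 IL-1, TNF and NF-kappaB genes, 4 were nominally higher, among them Il1b, Il10ra, the IL-10 receptor chain, at 274, 374, 339, 506 and 460.5 normalized counts without and 604, 476, 516, 611 and 602 with chitin (0.43 ± 0.13 on the log2-like scale), and Nfkb1, an NF-kappaB subunit (0.11 ± 0.042), and Ptgs2 was nominally lower. Tnf itself differed by 0.11 ± 0.067 and Il6, at no more than 3.86 normalized counts in any tumor, by −0.074 ± 0.062. Of 16 TGF-beta genes, 2 were nominally higher, Tgfbi and the receptor gene Tgfbr2 (0.25 ± 0.12), and 2 nominally lower, among them Ltbp2, a latent TGF-beta binding protein (−0.50 ± 0.23). Of 18 genes of epithelial-mesenchymal transition, the transcription factor genes Snai2 (0.22 ± 0.086) and Twist2 (−0.29 ± 0.13) were nominally higher and lower, respectively. Of 12 fibroblast genes, Cxcl12 and S100a4, a calcium-binding protein (0.22 ± 0.099), were nominally higher and Pdgfra nominally lower. Among 11 genes of CHI3L1 receptors and signalling, Cd44, a receptor for hyaluronan, was nominally higher at 1862, 1460.4, 2093, 1750.4 and 1933 (untreated) and 1957, 2033, 2859, 3055 and 2503 (chitin) normalized counts (0.41 ± 0.16). Cd79b, of the B-cell receptor, was nominally higher of 10 B-cell genes (0.20 ± 0.089). Of 15 p53 and cell cycle inhibitor genes, Cdkn1b (−0.15 ± 0.056) and Gadd45a (−0.43 ± 0.17) were nominally lower, and of 19 immediate-early genes Atf3 (−0.35 ± 0.17) and Myc (−0.23 ± 0.11) were. Of 83 respiratory chain genes, Cox6c (0.17 ± 0.072) and Ndufa11 (0.17 ± 0.080) were nominally higher. Hormone and growth factor receptor genes (13), milk protein genes (6), adipocyte genes (14) and red blood cell genes (3) had 0 nominal members, with medians of 0.011, −0.034, −0.072 and −1.10. The red blood cell median was −1.41 without untreated tumor 3.

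Of 18 clock genes, Per1 was nominally higher, at 345, 375, 167, 276 and 431 normalized counts without and 501, 536, 372, 614 and 544 with chitin (0.56 ± 0.19 on the log2-like scale, limma, adjusted p = 0.264). Bhlhe41 (−0.32 ± 0.11), Cry1 (−0.23 ± 0.090) and Per2, at 267, 269, 167, 228 and 151 (untreated) and 135, 95, 139, 153 and 161 (chitin) normalized counts (−0.41 ± 0.16), were 3 of the 4 nominally lower genes, with Ciart. These genes cycle over the day, and the hour of tumor collection is not given in the sources used here.

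The anti-PD-1 groups of the same model offer a comparison with no tumor in common: chitin + anti-PD-1 (5 tumors) against anti-PD-1 (5 tumors), an antibody against the T-cell receptor PD-1 given at 200 µg. It asks whether the genes above also differed when chitin was added to anti-PD-1. No gene passed the adjusted threshold there either, and 546 (3.81%) were nominally higher and 642 (4.48%) nominally lower with chitin. Of the 883 genes nominally higher with chitin alone, 686 (77.7%) were also higher on top of anti-PD-1, against 52.1% of all genes, and of the 756 lower genes 589 (77.9%) were also lower, against 47.9% of all. Nominal in the same direction were 86 of the 883 (9.74%) and 124 of the 756 (16.4%), and nominal in the opposite direction 15 and 8. Although no tumor is compared in both, both comparisons took each gene's estimate of the spread from the same fit of all groups of this model. A gene with a small estimate is thus more easily nominal in both, and the part of this in the nominal counts was not tested. Genes are not independent of each other, and these shares are descriptions. Read depth was again greater with chitin (5802662 to 13084865 against 5755757 to 7745140 reads), so that depth moved in the same direction in both comparisons. With all tumors thinned to 5105898 reads, the shares were 75.8% of 846 higher genes and 75.5% of 740 lower genes.

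The gene groups differed in how far they were shared. All 23 hypoxia and glycolysis genes were lower again, 6 nominally (median −0.25 on the log2-like scale), as were all 18 unfolded protein response genes, 6 nominally (median −0.17). Egln3 was at 242 ± 92.5 normalized counts with anti-PD-1 and 78.9 ± 38.3 with chitin added (mean ± SD of 5 tumors, −0.92 with SE 0.23, limma, adjusted p = 0.406), and Ern1 at 796 ± 216 and 515 ± 75.1 (−0.50 with SE 0.13, adjusted p = 0.419). Class II genes were positive for all 11 with 0 nominal, and smaller than with chitin alone for all but H2-Eb2, with a median of 0.22 and H2-Aa at 0.38 (SE 0.51). The level of H2-Aa was 1098 ± 819 normalized counts with anti-PD-1 and 1468 ± 1105 with chitin added, beside 570.0 ± 322 in untreated and 1606 ± 799 in chitin-treated tumors. IFN-gamma response genes were likewise positive for all 16 with 0 nominal (median 0.14). Class I genes had a median of 0.020 with 1 nominally higher, and Tapbp differed by 0.039 (SE 0.065). Ptpro differed by 0.16 (SE 0.073), Myo18a by −0.24 (SE 0.077), Mafg by −0.24 (SE 0.065), Ccr2 by 0.62 (SE 0.29) and Tigit by −0.44 (SE 0.13), all nominally and in the direction seen with chitin alone. Of the 10 non-overlapping higher genes with the smallest p, 6 were positive here, and of the 10 lower ones 8 were negative. T-cell genes were positive for 13 of 19 with 0 nominal (median 0.042). Cd8a (−0.14), Adgre1 (−0.030) and Cd226 (−0.018), nominally higher with chitin alone, were not positive. Per1 was nominal in the opposite direction, at −0.72 (SE 0.19), and so was Cd44, at −0.42 against 0.41 with chitin alone. Ribosomal protein, cholesterol and muscle lists had the opposite sign to that with chitin alone, with 20 of 20 muscle genes higher, 10 of them nominally.

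**Figure D3:**
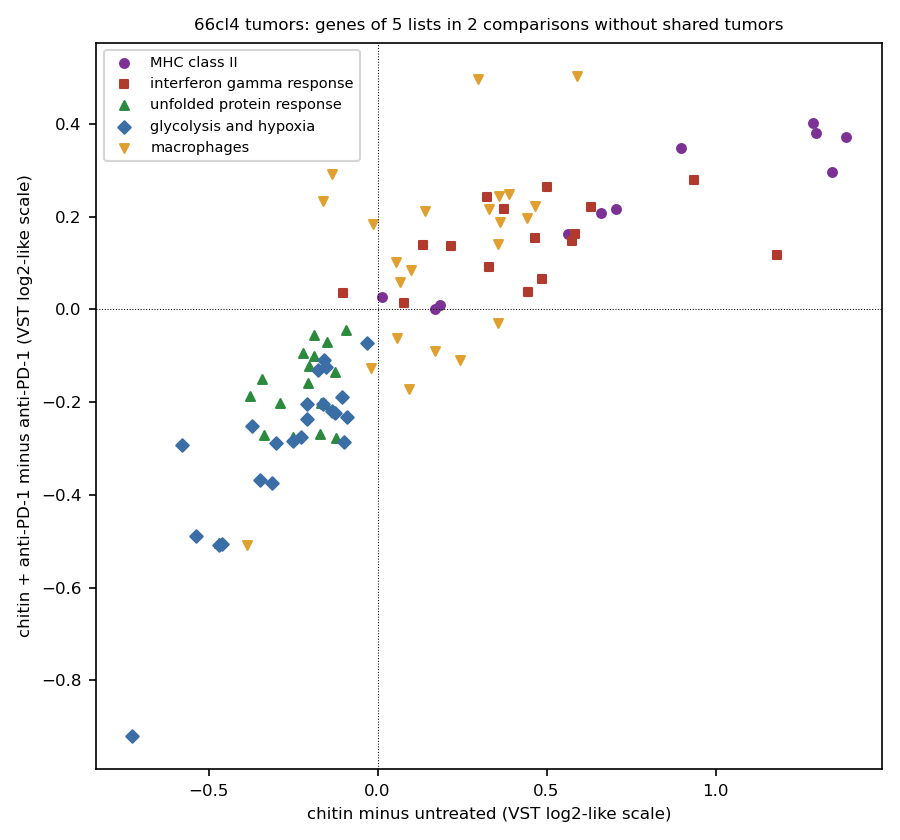
Genes of 5 lists in 66cl4 tumors by their difference with chitin alone (x axis) and with chitin added to anti-PD-1 (y axis), both on the deposited log2-like scale; each point is a gene. All unfolded protein response and hypoxia genes lie at the lower left and all MHC class II genes at the upper right, where they spread farther along the x axis than along the y axis.

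In 4T1 tumors, chitin (5 tumors) against untreated (4 tumors) gave 199 genes nominally higher (1.39%) and 198 nominally lower (1.38%), and no gene passed the adjusted threshold. Of the 883 genes higher in 66cl4, 254 (28.8%) were higher in 4T1, against 49.0% of all genes, and of the 756 lower genes 369 (48.8%) were lower, against 51.0%. Hypoxia and glycolysis genes were lower for all 23, with a median of −0.23 on the log2-like scale, and no other list had the same sign for each member in all 3 comparisons. Macrophage markers were negative for 19 of 23 in 4T1 (median −0.35), and unfolded protein response genes for 6 of 18. Csf1r differed by −0.46 (SE 0.42) in 4T1 against 0.39 in 66cl4, and H2-Aa by 0.058 (SE 0.31) against 1.30. The level of H2-Aa was 3710.2 ± 1954 normalized counts in untreated (mean ± SD, n = 4) and 3817 ± 1722 in chitin-treated 4T1 tumors (n = 5). Tested as a difference between models over all 39 tumors, 0 genes passed the adjusted threshold (limma), while 557 (3.89%) were nominally more positive in 66cl4 and 428 (2.99%) more negative. For Csf1r this difference was 0.85 (SE 0.45, adjusted p = 0.73), for H2-Aa 1.24 (SE 0.64, adjusted p = 0.73) and for Ccr2 1.32 (SE 0.68, adjusted p = 0.73).

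**Figure D4:**
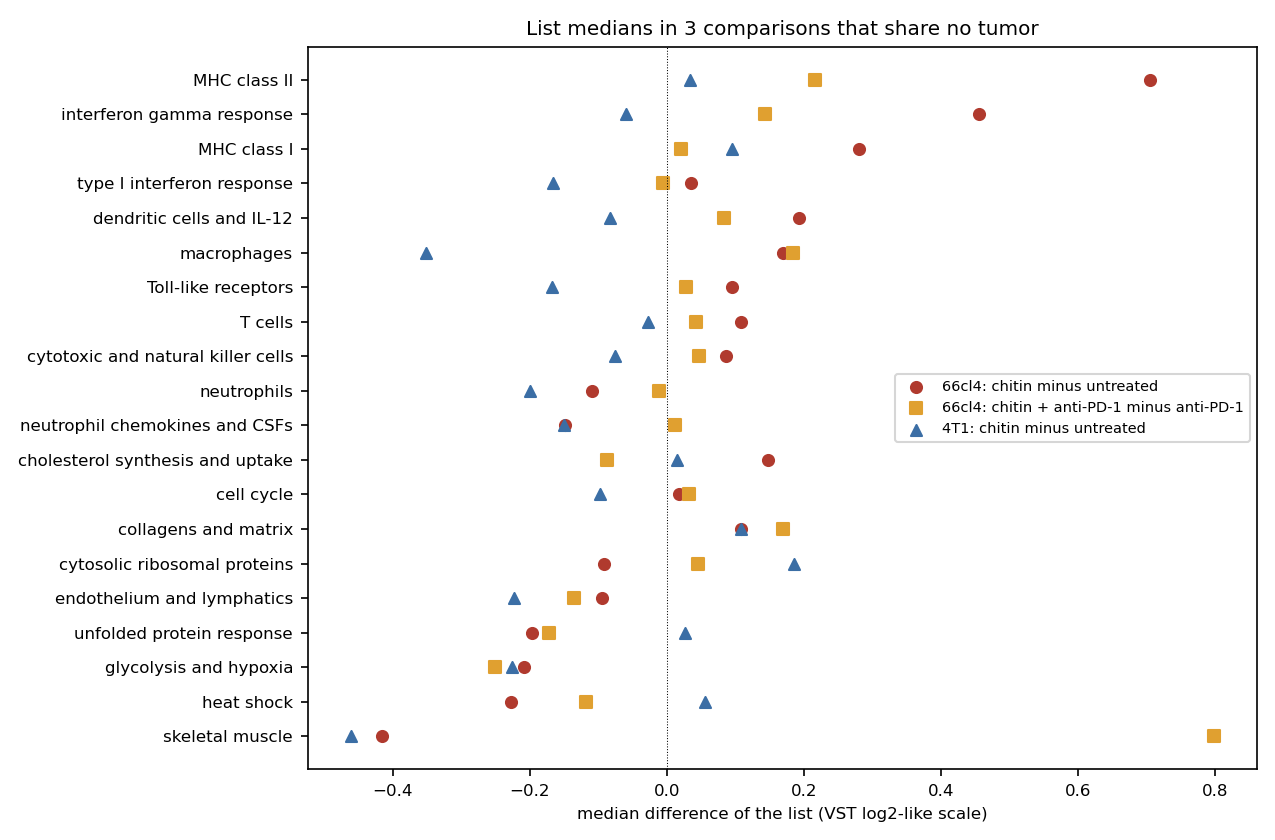
Median difference of the genes in 20 lists (log2-like scale, x axis) in 3 comparisons that share no tumor: 66cl4 chitin minus untreated (circles), 66cl4 chitin + anti-PD-1 minus anti-PD-1 (squares) and 4T1 chitin minus untreated (triangles). The hypoxia medians lie together between −0.25 and −0.21, the macrophage median is negative in 4T1 alone, and the muscle median ranges from −0.46 to 0.80.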

How the data were processed

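Bulk RNA-seq was performed on primary tumors collected 5 w p.i., with libraries made from 250 ng RNA and 150 base reads. The authors aligned reads with HISAT2 to mm10 (version not given in the sources used here), counted them per gene with strand information (summarizeOverlaps, intersection non-empty mode), dropped genes that did not exceed 10 reads in 10% of cases or more, and deposited variance-stabilized values (VST) of DESeq2 for 39 tumors. These log2-like deposited values flatten toward 6.05, the value of 0 reads, so that differences of low genes are understated. Inverting the transform gave whole reads for 100.0% of values (tolerance 0.001), and these reads, divided by the size factors, are the normalized counts printed.

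Groups came from the sample labels. Differences are those of group means of the VST values, tested with limma 3.58.1 (R 4.3.3) with a mean-variance trend over the 4 groups of the 66cl4 model, two-sided, with Benjamini-Hochberg adjustment over 14318 genes, and the SE is the moderated one. The 4T1 groups were fitted in the same way, and the difference between models over all 39 tumors. Same-numbered tumors were not treated as pairs. Gene lists (46, of which 44 had measured members) are described by counts and medians, with no test. The members and lists were chosen with earlier results of these data known. Genes were named by this rule: the genes the study names for RNA, and among those of proteins it measured, the nominal ones (the rest as a range), the 10 genes higher and 10 lower with the smallest p among those with at least 20 normalized counts on average and no overlap between groups, and up to 4 nominal members of each list. Lists with 0 nominal members are given by their counts and medians, and a few genes that the rule names are not reported here. All other genes named were chosen after their values were seen, among them Gzmc to Gzmg, Hmox1, Adam8, the class II chain genes, Cd74, Cxcl10 and Iigp1. Motifs were searched on both strands of 300 base RefSeq promoters. Alternatives were median centring, quantile normalization, no trend, a filter on low genes, tumor weights, a replicate block, limma-voom on the recovered reads, equal read depth, read depth as covariate, the 10 tumors or both models in 1 fit, and leaving out each tumor. The fits were tested on simulated data. Read totals were 5105898 to 14800352 per tumor, and a gene at 0 reads may still be expressed below this depth.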

Additional observations from a re-analysis of the deposited data

Results flagged for a closer look

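Among the named genes, 17 of 350 groups of 5 tumors held a tumor whose gap to the nearest other tumor exceeded 0.71 of the group's range, the critical value of Dixon's test, which chance exceeds in about 1 of 20 groups. The 17 are thus close to the number that this rate gives, and the flags are descriptions. Values are normalized counts. Of the 17, 5 concerned untreated tumor 3 and 4 chitin-treated tumor 3. Untreated tumor 3, which also had the most muscle transcripts, was lowest for Pdgfra at 1315 (2549 to 2950 in the other untreated tumors), Dnajb9 at 296 (345 to 366) and Gadd45a at 498 (852 to 1033), and highest for Ccl2 at 956 (371 to 472) and Ifng at 0.879 (0 in the others), a gap that rests on 1 read. Chitin-treated tumor 3 was lowest for Psmb9 at 256 (338 to 371), Psmb10 at 634.5 (716 to 750.3) and Tgfbr2 at 3954 (5405 to 6089), and highest for Hspa8 at 15220 (12100 to 12550).

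Untreated tumor 1 was lowest for C1qa at 5698 (8698 to 9293) and Dcxr at 66.3 (83.7 to 87.9) and highest for Desi2 at 976 (763 to 816). Untreated tumor 4 was highest for Cxcl9 at 135 (46.3 to 64.2) and Iigp1 at 309 (136 to 170), both genes of the IFN-gamma response. Untreated tumor 5 was lowest for Gzmd at 226 (799 to 1256), Gzmf at 186 (752 to 1159) and Tnf at 13.4 (20.6 to 23.8).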

How the results depend on the processing

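Of 175 named genes, 166 kept the sign of their difference under all 21 alternatives (10 of them leaving out 1 tumor). Many of these genes were chosen for a small p or non-overlapping groups in the same tumors. Their kept signs are thus in part fixed by the choice and are not support. The exceptions were Chil3 (−0.082 with limma-voom, −0.040 with read depth as covariate), Cd163 (−0.025), Cxcl2 (0.036) and Foxp3 (−0.030, the last 3 with the covariate), and without a tumor Chil1 (−0.025 to 0.34), Chil3 (−0.030 to 0.067), Cd163 (−0.017 to 0.16), Mrc1 (−0.0084 to 0.15), Ccl2 (−0.25 to 0.031), Lgals3 (−0.22 to 0.011) and Lyve1 (−0.46 to 0.083). The cause was not tested. Genes past the adjusted threshold numbered 2 with a replicate block (Ptpro and Rrad), 1 at equal read depth, and 0 to 25 without a tumor, 25 without untreated tumor 3. The replicate numbers showed no pairing (correlations of same-numbered tumors of −0.47 to 0.32), and the block gave 970 genes nominally higher and 812 lower. Nominally higher genes numbered 279 with both models in 1 fit and 595 to 1184 without a tumor, and nominally lower ones 462 with read depth as covariate, 260 with both models and 464 (without untreated tumor 1) to 1155 (without untreated tumor 3). With both models in 1 fit, 0 macrophage, 0 T-cell and 3 IFN-gamma genes were nominally higher. Chitin on top of anti-PD-1 gave 2 genes past the adjusted threshold with tumor weights. In 4T1, 115 genes were nominally higher without the lowest 25% of genes, and 128 and 120 nominally lower with median centring and tumor weights. The share of higher genes also higher on top of anti-PD-1 was 88.8% with read depth as covariate, where both comparisons share the depth coefficient, and 73.0% to 79.6% without a tumor. For lower genes it was 81.1% without the lowest 25% of genes, 74.8% with limma-voom, 81.2% with the covariate, 81.5% with both models and 71.5% to 81.1% without a tumor. In 4T1, the share of higher genes was 34.5% with median centring, 25.5% with the filter, 25.4% with limma-voom, 38.3% with the covariate and 26.4% to 32.3% without a tumor, and that of lower genes 42.9%, 42.6% with tumor weights, 40.9% with the covariate and 44.9% to 52.0%. The depth difference ranged from 2757591 to 4911820 reads and lost its p under 0.05 without untreated tumor 1, 4 or 5 or chitin-treated tumor 3. With 5 tumors a group, depth that differs with treatment and tumors that may share a mouse, small differences could not be resolved.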

Other observations

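Of 18 clock genes, 10 were nominally lower when chitin was added to anti-PD-1, against 4 with chitin alone. Per2 differed by −0.85 (SE 0.16, limma, adjusted p = 0.194) on the log2-like scale in the former comparison and by −0.41 ± 0.16 in the latter, Cry1 by −0.29 and −0.23, and Bhlhe41 by −0.36 and −0.32. Per1 had opposite signs in them. The hour of collection is not given in the sources used here, and its part was not tested.

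Ptgs2 was nominally lower in both 66cl4 comparisons, at −0.77 with chitin alone and −0.74 (SE 0.27) on top of anti-PD-1, and so were Vegfa at −0.47 and −0.51 and Ltbp2 at −0.50 and −0.55. Cxcl12 was nominally higher in both, at 0.65 and 0.40, as was Snai2 at 0.22 and 0.29. The groups did not overlap for Cxcl12 and Snai2 with chitin alone.

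The globins Hba-a1 and Hbb-bt, Mmp12, Hmox1 and Adam8 were highest in the same pair of untreated tumors. Hba-a1 was at 7161 and 11409 normalized counts in untreated tumors 1 and 5.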
